A study of Mus musculus with 11 samples.

Results

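The Pax5 and Ebf1 loci were read as the 2 genes with 20 kb on either side, and every peak whose position fell there was taken from 10 library lists and 4 group lists of a ChIP-seq series on IRF4 and PU.1. Pax5 is gene ENSMUSG00000014030.9 on mm9 chromosome 4, from 44544017 to 44724318 on the minus strand, and Ebf1 is ENSMUSG00000057098.7 on chromosome 11, from 44430819 to 44821593 on the plus strand. The 10 library lists held 218 peaks in these regions, 80 at Pax5 and 138 at Ebf1, of 162711 peaks in all, and the 4 group lists held 70 of 47808. Peak positions of any library that followed each other at less than 200 bp were joined into 1 place, which gave 26 places at Pax5 and 52 at Ebf1, of 70542 places in the genome. Places are numbered along the chromosome within each locus.

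ChIP-seq recovers the DNA that a protein holds, and a peak is a stretch where that DNA piles up over an input library. The cells were mature B cells from the spleens of B1-8i mice of the 129 background, whose gene-targeted antibody recognises the hapten NP. All were cultured with IL-2, IL-4, IL-5, CD40L and the antigen NP-Ficoll (at 0.01 ng/mL), and were taken on day 3, after differentiation towards plasma cells, or on day 1, when they were activated but had not yet differentiated. There were 3 IRF4 libraries on day 3 and 3 on day 1, and 2 PU.1 libraries on day 3 and 2 on day 1. The labels give neither a sort of the day 3 cells nor the animal or culture behind each replicate, and 2 libraries carry a pair of numbers in their titles. The p-values therefore measure the spread among libraries alone, which can be technical. The input DNA came from immature or peripheral B cells of 2 preparations, combined. The peak lists hold no expression values, so the labelled cell type was not checked against marker transcripts.

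Pax5 and EBF1 are transcription factors that commit precursors to the B lineage and keep mature B cells what they are. EBF1 activates Pax5, both activate genes of the B cell receptor, and the plasma cell repressor Blimp-1 turns Pax5 off. IRF4 is induced when B cells are activated and stays high in plasma cells. It has low affinity for DNA by itself and pairs with partners, among them the Ets-family factor PU.1, with which it shares Ets-IRF composite elements (EICE). A B-lineage enhancer is known in intron 5 of Pax5.

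The sequences that carry the findings are the 200 bp around the peaks at 6 places, read from the mm9 reference on the plus strand; Pax5 itself is transcribed from the other strand. Capitals mark every match on either strand to the EICE GGAANNGAAA, to a pair of IRF sites (ISRE, GAAANNGAAA) or to the AP-1 site TGACTCA or TGAGTCA. An EICE and an ISRE can overlap. Pax5 place 13 (chr4:44683924-44684123), Ebf1 place 29 (chr11:44578642-44578841) and Ebf1 place 41 (chr11:44708398-44708597) are shown because they are the places in all 4 group lists, and the only IRF4 places at these loci with an EICE. Ebf1 place 31 (chr11:44592591-44592790) is shown because IRF4 was called there without PU.1, Pax5 place 9 (chr4:44637770-44637969) because IRF4 was called there in 5 libraries, and Ebf1 place 10 (chr11:44449872-44450071) because it was called on day 1 alone.
Pax5 place 13: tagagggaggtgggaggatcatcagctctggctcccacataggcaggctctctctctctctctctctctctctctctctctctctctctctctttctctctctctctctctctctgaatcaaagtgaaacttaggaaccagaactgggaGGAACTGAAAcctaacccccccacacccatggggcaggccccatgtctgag
Ebf1 place 29: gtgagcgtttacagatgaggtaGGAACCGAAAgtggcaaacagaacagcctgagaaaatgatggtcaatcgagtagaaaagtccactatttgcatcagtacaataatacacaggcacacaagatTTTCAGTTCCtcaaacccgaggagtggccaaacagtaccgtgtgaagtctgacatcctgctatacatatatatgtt
Ebf1 place 41: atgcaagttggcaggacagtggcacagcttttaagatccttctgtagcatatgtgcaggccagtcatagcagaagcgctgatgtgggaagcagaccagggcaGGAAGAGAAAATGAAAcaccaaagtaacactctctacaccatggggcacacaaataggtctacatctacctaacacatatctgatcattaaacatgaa
Ebf1 place 31: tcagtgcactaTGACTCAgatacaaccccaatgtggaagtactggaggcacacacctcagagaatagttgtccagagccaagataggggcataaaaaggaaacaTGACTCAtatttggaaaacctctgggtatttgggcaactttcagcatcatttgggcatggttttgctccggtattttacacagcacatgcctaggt
Pax5 place 9: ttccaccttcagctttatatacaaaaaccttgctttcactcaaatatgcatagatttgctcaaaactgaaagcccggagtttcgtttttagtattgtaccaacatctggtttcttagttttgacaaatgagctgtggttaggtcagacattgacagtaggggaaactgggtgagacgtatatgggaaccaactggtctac
Ebf1 place 10: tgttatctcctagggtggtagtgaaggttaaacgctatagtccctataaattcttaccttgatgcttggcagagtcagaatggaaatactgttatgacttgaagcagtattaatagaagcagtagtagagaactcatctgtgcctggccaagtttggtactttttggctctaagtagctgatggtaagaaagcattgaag

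The EICE of Pax5 place 13 reads GGAACTGAAA on the plus strand (44684073 to 44684082). Ebf1 place 29 holds GGAACCGAAA on the plus strand (44578664 to 44578673) and, on the minus strand, GGAACTGAAA (44578766 to 44578775), the same 10 letters as at Pax5. At Ebf1 place 41 the EICE GGAAGAGAAA (44708500 to 44708509) runs into the ISRE GAAAATGAAA (44708506 to 44708515). Ebf1 place 31 holds the AP-1 site TGACTCA at 44592602 to 44592608 and again at 44592695 to 44592701. Pax5 place 9 and Ebf1 place 10 hold none of these letters in the window shown. For scale, an EICE was present in 30.04% of the 1964 windows of the IRF4 day 3 group list and in 22.0% of the 2496 of the day 1 group list, against 2.19% and 2.14% of windows 2 kb to either side. An AP-1 site was present in 18.3% and 24.9% of those windows and an ISRE in 12.7% and 7.45%, against 4.07% and 3.91% (AP-1) and 2.80% and 2.89% (ISRE) of the windows to either side. A match describes the letters and is not a bound site.

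Both genes lay near IRF4 and near PU.1 peaks on both days. A group list is the authors' single list per factor and day; at these loci each of its lines repeats a line of a library list. Pax5 had 2 IRF4 peaks in the day 3 group list and 3 in the day 1 group list, and Ebf1 had 4 in the day 3 list and 6 in the day 1 list. The PU.1 group lists had 9 peaks at Pax5 for day 3 and 12 for day 1. At Ebf1 they had 16 for day 3 and 18 for day 1. Of 22283 protein-coding genes, 8.45% had a group-list IRF4 peak in the gene or within 20 kb on day 3 and 10.0% on day 1, and 54.3% and 52.2% had a PU.1 peak.

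A longer gene leaves more room for peaks, so the loci were set beside the 1091 protein-coding genes at least as long as Pax5, which spans 180.3 kb. Among these, 16.8% had an IRF4 peak on day 3 and 20.3% on day 1, and 61.4% and 62.0% had a PU.1 peak. On day 3 the only long gene with more IRF4 peaks than Ebf1 was Gm20388, and on day 1 these were Gm20388 and Lpp. Another 1 on day 3 and 3 on day 1 had as many as Ebf1. Ebf1 itself spans 390.8 kb and the set starts at the length of Pax5, so neither gene was matched for length. Of the 1090 other long genes, 15 on day 3 and 16 on day 1 had more IRF4 peaks than Pax5, and 40 and 15 had as many. In the PU.1 lists, 13 of them had more peaks than Ebf1 on day 3 and 12 on day 1, and 75 and 42 had more than Pax5.

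**Figure D1:**
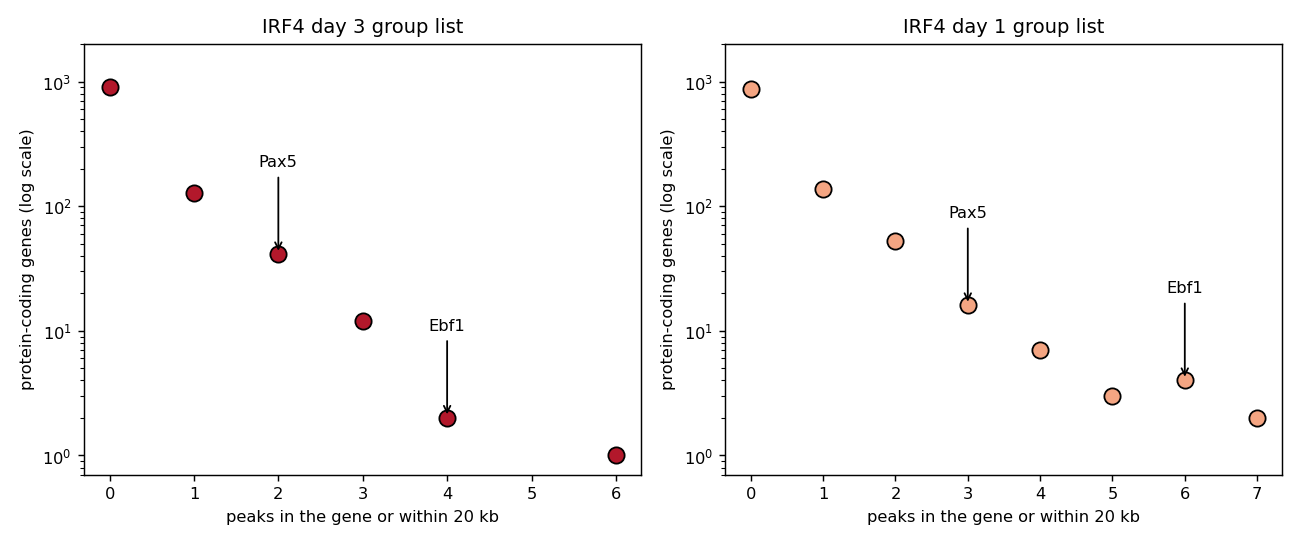
Number of protein-coding genes at least as long as Pax5 (vertical, log scale) by their number of IRF4 group-list peaks in the gene or within 20 kb (horizontal), for day 3 (left) and day 1 (right). Most long genes have 0 peaks (908 on day 3, 869 on day 1), and the arrows mark Pax5 with 2 and 3 peaks and Ebf1 with 4 and 6.

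The lists that these numbers come from differ in length. IRF4 list lengths were 2784, 1408 and 5595 peaks for day 3 and 825, 9326 and 8929 peaks for day 1. PU.1 list lengths were 34410 and 34061 peaks for day 3 and 27321 and 38052 peaks for day 1. The lowest enrichment listed was 15.04 to 16.9 in the IRF4 day 3 libraries, 20.9 to 21.9 in the IRF4 day 1 libraries and 14.9 to 15.1 in the PU.1 libraries, so a weak IRF4 peak can enter a day 3 list and not a day 1 list. Enrichment is the authors' fold over input; each value belongs to its own list, and no change was read from values of different lists. The files hold no read counts, so the depth behind a peak is unknown.

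At Pax5 every IRF4 library called at least 1 peak. The IRF4 libraries had 2, 2 and 2 peaks there on day 3 and 1, 4 and 5 on day 1, so the days overlapped. The means were 2 ± 0 on day 3 and 3.33 ± 2.08 on day 1 (SD, n = 3 each), a difference of -1.33 peaks (two-sided exact permutation p = 0.4, adjusted p = 0.8 over 8 tests; the smallest p that 3 against 3 can give is 0.1). Per 1000 peaks of its own library the order turned, with 0.832 ± 0.541 on day 3 and 0.734 ± 0.42 on day 1 (exact permutation p = 0.7), and it also turned with the 825 strongest peaks of each library (difference 0.333, exact permutation p = 1).

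At Ebf1 the day 3 IRF4 libraries had 3, 3 and 9 peaks and the day 1 IRF4 libraries had 2, 8 and 10. The days overlapped. The means were 5 ± 3.46 on day 3 and 6.67 ± 4.16 on day 1 (SD, n = 3 each), a difference of -1.67 (exact permutation p = 0.9, adjusted p = 1). Per 1000 peaks of the library the values were 1.61 ± 0.527 on day 3 and 1.47 ± 0.839 on day 1, which turns the sign (exact permutation p = 0.9). The number of IRF4 peaks per locus differed between days by less than the spread between libraries.

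PU.1 was called many times at both loci. At Pax5 the day 3 PU.1 libraries had 15 and 16 peaks and the day 1 PU.1 libraries had 12 and 21. The day 1 values lie on either side of the day 3 values. The means were 15.5 ± 0.707 on day 3 and 16.5 ± 6.36 on day 1 (SD, n = 2 each), a difference of -1 (exact permutation p = 1, adjusted p = 1; 2 against 2 cannot go below 0.333), which was 3.5 without PU.1 day 1 replicate 2 and -5.5 without PU.1 day 1 replicate 1. It was 1 with the stronger 50% of each list and 0.5 with the 27321 strongest peaks of each PU.1 library.

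At Ebf1 the day 3 PU.1 libraries had 29 and 26 peaks and the day 1 PU.1 libraries had 20 and 28, and the days overlapped here too. The means were 27.5 ± 2.12 on day 3 and 24 ± 5.66 on day 1 (SD, n = 2 each), a difference of 3.5 (exact permutation p = 0.667, adjusted p = 1). Without PU.1 day 1 replicate 1 the difference was -0.5 and without PU.1 day 1 replicate 2 it was 7.5.

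At both loci every IRF4 library had fewer peaks than every PU.1 library. Every IRF4 list was also shorter than every PU.1 list, with 9326 peaks at most against 27321 at least. Tests of the raw counts therefore cannot tell these loci apart from list length. At Pax5 the IRF4 libraries averaged 2.67 ± 1.51 peaks (SD, n = 6) and the PU.1 libraries 16 ± 3.74 (SD, n = 4), a difference of -13.3 (two-sided exact permutation p = 0.00476, the smallest that 6 against 4 can give, adjusted p = 0.019). At Ebf1 the IRF4 libraries averaged 5.83 ± 3.54 (SD, n = 6) and the PU.1 libraries 25.8 ± 4.03 (SD, n = 4), a difference of -19.9 (exact permutation p = 0.00476, adjusted p = 0.019). Within day 3 the differences were -13.5 at Pax5 and -22.5 at Ebf1, and within day 1 they were -13.2 and -17.3 (exact permutation p = 0.1 each, the smallest that 3 against 2 can give).

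The order turned when the counts were set against the length of the lists. Per 1000 peaks of the library the IRF4 libraries had 0.783 ± 0.436 at Pax5 and the PU.1 libraries 0.474 ± 0.054, which turns the sign (difference 0.309, exact permutation p = 0.243, adjusted p = 0.667 over 6 such tests). At Ebf1 the IRF4 libraries had 1.54 ± 0.631 per 1000 and the PU.1 libraries 0.768 ± 0.0514 (difference 0.768, exact permutation p = 0.0381, adjusted p = 0.229). At Ebf1 the lowest IRF4 library, at 0.858 per 1000, was above the highest PU.1 library, at 0.843. From the shortest IRF4 list to the longest, the shares at Ebf1 were 2.42, 2.13, 1.08, 1.61, 1.12 and 0.858 per 1000. The IRF4 share thus tended to be lower in longer lists, so the share does not separate factor from list length. At Pax5 the libraries overlapped, with IRF4 from 0.357 to 1.42 and PU.1 from 0.436 to 0.552 per 1000. Within days the Ebf1 difference was 0.803 on day 3 (exact permutation p = 0.2) and 0.733 on day 1 (exact permutation p = 0.3).

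**Figure D2:**
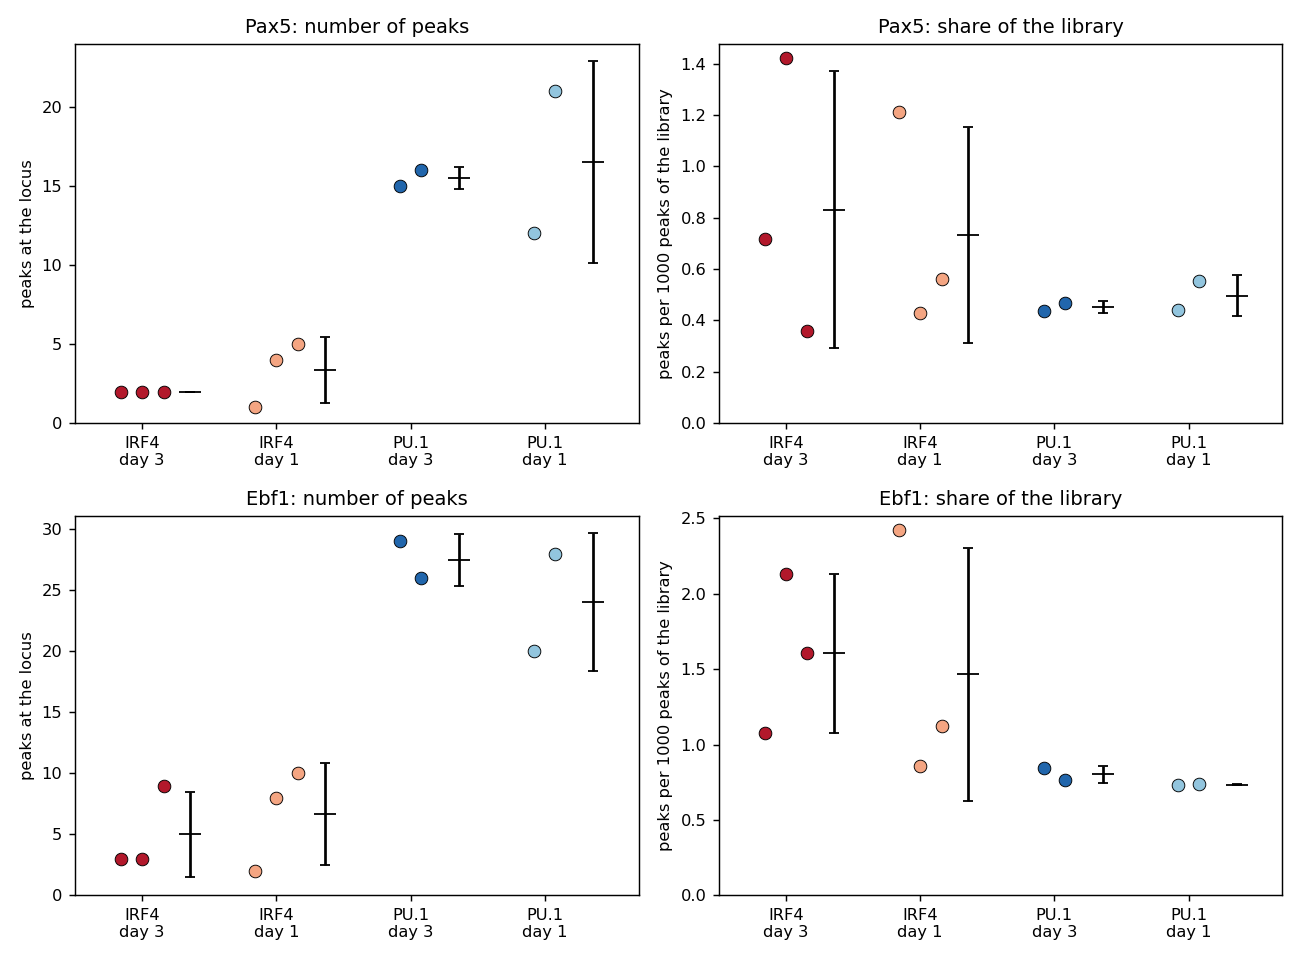
Peaks at Pax5 (top) and Ebf1 (bottom) in each library, as a number (left) and per 1000 peaks of the same library (right). Points are libraries, bars are means with SD (n = 3 for IRF4, n = 2 for PU.1 on each day); by number PU.1 lies above IRF4 at both loci, and per 1000 peaks every IRF4 library lies above the PU.1 libraries at Ebf1.

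The difference in density between the loci passed no test for either factor. IRF4 had 1.35 ± 0.823 peaks per 100 kb at Ebf1 and 1.21 ± 0.683 at Pax5 (SD, n = 6), with a higher density at Ebf1 in 4 of 6 libraries (difference 0.144, two-sided exact sign-flip permutation p = 0.781, adjusted p = 1). Without IRF4 day 3 replicate 3 this difference was -0.0639. PU.1 had 5.98 ± 0.936 peaks per 100 kb at Ebf1 and 7.26 ± 1.7 at Pax5 (SD, n = 4), and Ebf1 was lower in all 4 libraries (difference -1.29, exact permutation p = 0.125, the smallest 4 libraries can give, adjusted p = 0.333). With the stronger 50% of each list the PU.1 difference was 0.59. With 50 kb on either side the differences were 0.0589 for IRF4 and -0.462 for PU.1.

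Single-library calls made up 3 of the 6 IRF4 places at Pax5 and 12 of the 18 at Ebf1, against 79.02% over the genome. The places at the loci are few, and the difference from the genome was not tested. IRF4 was called at 6 places of Pax5 and at 18 of Ebf1. At Pax5, 1 place was called in all 6 IRF4 libraries, 1 in 5, 1 in 2 and 3 in a single library. At Ebf1, 0 places were called in all 6, 2 in 5, 2 in 4, 1 in 3, 1 in 2 and 12 in a single library. Over the genome 1.46% of 20030 IRF4 places were called in all 6 libraries and 79.02% in 1. The count for all libraries at Pax5 was 2 without IRF4 day 1 replicate 1, which adds place 9, and that at Ebf1 was 1 without IRF4 day 3 replicate 2 (place 31) or without IRF4 day 3 replicate 3 (place 29).

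PU.1 was called at 24 places of Pax5, 5 of them in all 4 PU.1 libraries and 11 in 3, and at 44 of Ebf1, 14 of them in all 4 and 5 in 3. Over the genome 24.7% of 57520 PU.1 places were called in all 4 libraries. At Pax5 the 5 became 10 without PU.1 day 3 replicate 1 and 9 without PU.1 day 1 replicate 1. PU.1 was also called at 4 of the 6 IRF4 places of Pax5 and at 10 of the 18 of Ebf1, against 35.0% of IRF4 places in the genome. The count at Ebf1 was 5 without IRF4 day 3 replicate 3. With the 825 strongest peaks of each IRF4 library and the 27321 of each PU.1 library, 1 such place was left at Pax5 and 4 at Ebf1.

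No place at either locus was called by IRF4 in all 3 libraries of 1 day and in none of the other. Such places were rare everywhere, with 70 for day 3 and 38 for day 1 among 20030 IRF4 places in the genome. By single libraries, 0 IRF4 places of Pax5 were called on day 3 alone, 4 on day 1 alone and 2 on both days. At Ebf1 6 were called on day 3 alone, 7 on day 1 alone and 5 on both days. All 6 of the day 3 places came from IRF4 day 3 replicate 3 alone, with enrichments of 15.2 to 28, and 5 of them lay under 20.9, where the day 1 lists end. Of the 20030 IRF4 places in the genome, 4047 were called on day 3 alone, 13014 on day 1 alone and 2969 on both days. PU.1 was called on day 3 alone at 3 places of Pax5 and 14 of Ebf1, and on day 1 alone at 3 and 5. It was called on both days at 18 and 25. Of the 57520 PU.1 places in the genome, 14169 were called on day 3 alone, 10522 on day 1 alone and 32829 on both days. Places with PU.1 in both libraries of 1 day and neither of the other numbered 1 at Pax5 (place 16, day 3) and 1 at Ebf1 (place 10, day 1). In the genome there were 2174 such places for day 3 and 1369 for day 1.

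**Figure D3:**
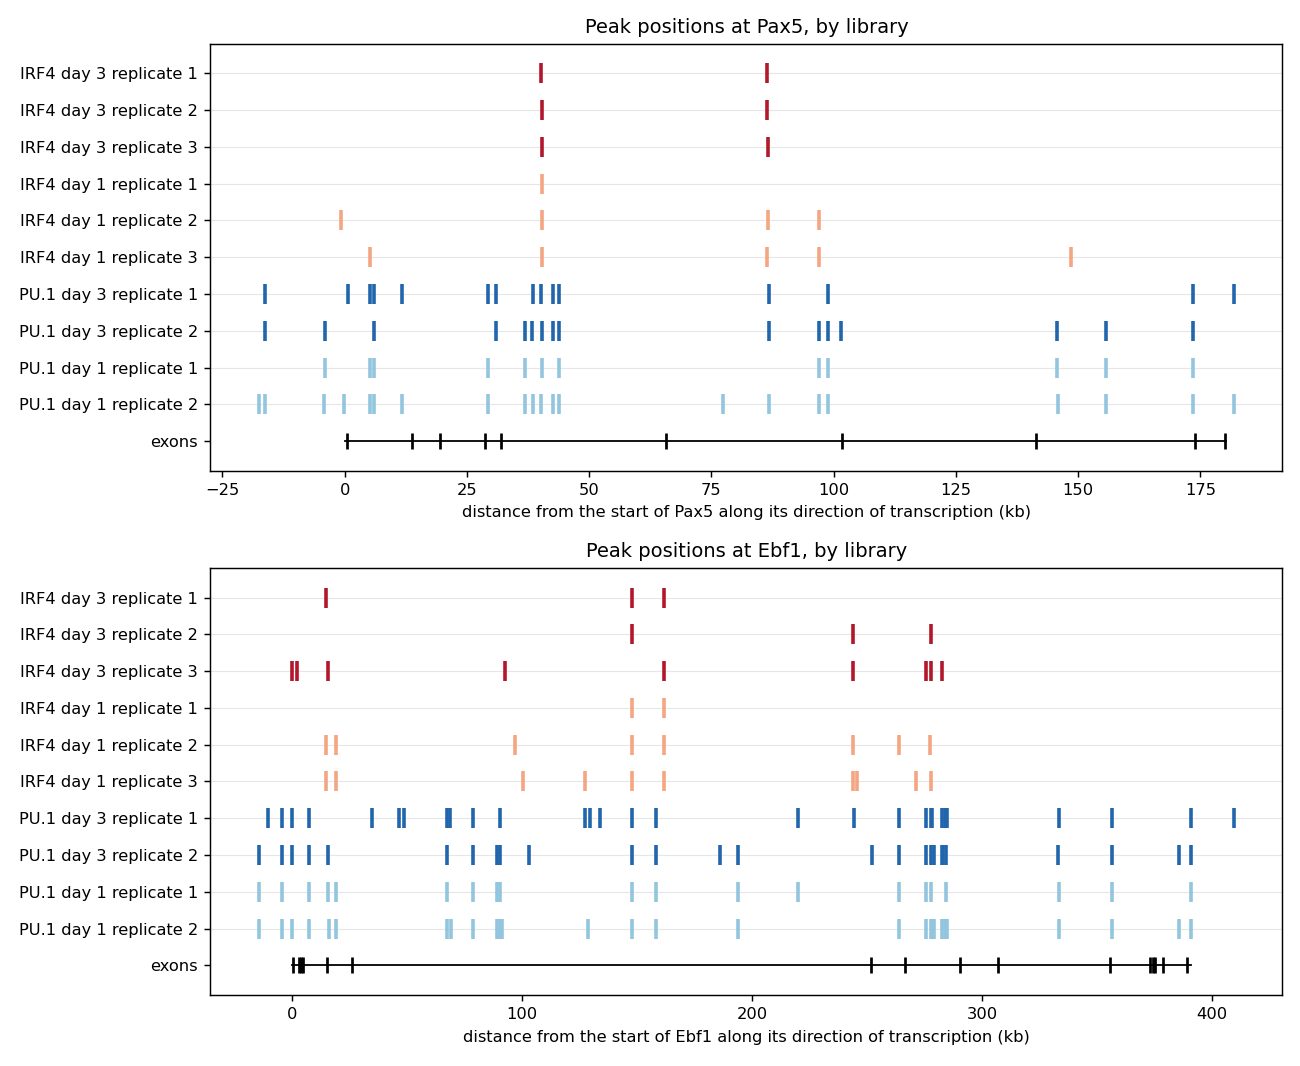
Peak positions along Pax5 (top) and Ebf1 (bottom), as distance from the gene's start in the direction of transcription (kb); each row is a library, each tick a peak, and the lowest row shows the exons. The IRF4 column 40.3 kb into Pax5 is filled in all 6 libraries, and at Ebf1 the columns at 147.9 and 161.9 kb are filled in 5 of 6.

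The place called most widely was Pax5 place 13, in intron 5, 40.3 kb from the start of the gene. It is also spanned by the gene Gm12462 on the opposite strand, outside the exons of both. IRF4 enrichment there was 69, 47.3 and 80.5 in the day 3 libraries and 33, 93.2 and 119.5 in the day 1 libraries. This was the strongest IRF4 peak of the locus in all 6 libraries and ranked within the top 0.571% to 6.32% of 5 lists; in IRF4 day 1 replicate 1, the shortest list, it ranked in the top 31.4%. PU.1 enrichment was 925.5 and 634.2 in the day 3 libraries and 338 and 534.9 in the day 1 libraries, the strongest PU.1 peak of the locus in all 4 libraries and within the top 0.328% to 1.87% of each list. The next strongest PU.1 peak at Pax5 was 85.6 and 96.7 in the day 3 libraries and 70.8 and 115.4 in the day 1 libraries. The median IRF4 and PU.1 positions lay 13 bp apart, 54 bp (IRF4) and 41 bp (PU.1) from the EICE. The window also holds a run of 46 bases of CT repeat (44683971 to 44684016), beside the median IRF4 position at 44684023. Its part in the peak was not tested.

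Ebf1 place 29, in intron 6 and 147.9 kb from the start, held the strongest PU.1 peak of that locus. IRF4 enrichment was 61.3 and 23.2 in day 3 replicates 1 and 2, with no peak in day 3 replicate 3, and 34.9, 52.8 and 30.5 in the day 1 libraries. PU.1 enrichment was 448.6 and 563 in the day 3 libraries and 361.9 and 384.2 in the day 1 libraries, the highest at the locus in all 4 libraries and within the top 1.08% to 2.24% of each list. For IRF4 it was the strongest peak of the locus in 2 of 6 libraries, day 3 replicate 1 and day 1 replicate 1. Its IRF4 ranks were in the top 4.31% and 52.7% in day 3 replicates 1 and 2 and the top 25.9%, 9.13% and 32.2% in the day 1 libraries. The median positions of IRF4 and PU.1 were 3 bp apart. The window of the strongest PU.1 peak of each locus thus held the EICE GGAACTGAAA, and IRF4 was called there in 6 of 6 libraries at Pax5 and 5 of 6 at Ebf1.

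Ebf1 place 31, in the same intron and 161.9 kb from the start, had IRF4 without PU.1. IRF4 enrichment was 52.4 and 23.4 in day 3 replicates 1 and 3, with no peak in day 3 replicate 2, and 29.4, 82.9 and 75.3 in the day 1 libraries. PU.1 was called there in 0 of 4 libraries. In IRF4 day 1 replicate 2 it was the strongest peak of the locus, in the top 2.55% of the list. AP-1 sites are where BATF and JUN proteins bind, which also partner IRF4 in activated B cells.

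Ebf1 place 41 lay in intron 8, 277.7 kb from the start. IRF4 enrichment was 26 and 36.2 in day 3 replicates 2 and 3 and 63.7 and 64.6 in day 1 replicates 2 and 3; replicate 1 of either day had no peak. PU.1 was called in all 4 libraries, at 50.3 and 37 on day 3 and 34.9 and 44 on day 1, with ranks in the top 33.5% to 44.6%. The median positions, 3 bp apart, lay 7 bp (IRF4) and 4 bp (PU.1) from the EICE, and in each of the 4 PU.1 lists this peak ranked below that of place 29.

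Pax5 place 9, in intron 6 and 86.4 kb from the start, had IRF4 in 5 of 6 libraries, at 23.8, 26.9 and 45.1 on day 3 and at 45.1 and 58.4 in day 1 replicates 2 and 3. PU.1 was weak there, at 20.9 and 24.9 on day 3 and 19.1 in day 1 replicate 2, and its nearest position was 196 bp from an IRF4 position. Pax5 place 8, 97 kb from the start in the same intron, had IRF4 in no day 3 library and at 30.4 and 36.3 in day 1 replicates 2 and 3. PU.1 was at 96.7 in day 3 replicate 2 and at 70.8 and 115.4 on day 1, so the place was not empty on day 3.

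Ebf1 place 10, in intron 5 and 19.2 kb from the start, had peaks on day 1 and none in any day 3 library. IRF4 was at 65.3 and 97.4 in day 1 replicates 2 and 3, within the top 5.21% and 1.21% of those lists, and PU.1 at 19.1 and 21.4, with the nearest positions of the factors 110 bp apart. In IRF4 day 1 replicate 3 it was the strongest peak of Ebf1. IRF4 day 1 replicate 1 had no peak there, so the split between days is 0 of 3 libraries on day 3 and 2 of 3 on day 1, with no test.

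Ebf1 place 7, in intron 4 and 14.9 kb from the start, had IRF4 at 23.7 in day 3 replicate 1 and at 54.1 and 24.8 in day 1 replicates 2 and 3, with no PU.1 peak. Ebf1 place 35, in intron 6 and 243.9 kb from the start, had IRF4 at 21.6 and 37.5 in day 3 replicates 2 and 3 and at 21.2 and 42.8 in day 1 replicates 2 and 3. PU.1 was called there in day 3 replicate 1 alone, at 34.6, 161 bp from the nearest IRF4 position. Neither window holds an EICE, an ISRE or an AP-1 site.

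At places 38 and 40 of Ebf1 a weak IRF4 peak of 1 library lay on a PU.1 place of all 4 libraries. Place 38, in intron 7, had IRF4 at 22.4 in day 1 replicate 2 and PU.1 at 70.6 and 110.5 on day 3 and at 87.7 and 98.3 on day 1. Place 40, in intron 8, had IRF4 at 15.2 in day 3 replicate 3 and PU.1 at 108.9 and 71.7 on day 3 and at 60.4 and 51 on day 1. These IRF4 peaks ranked in the top 78.7% and 96.6% of their lists, near the end.

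**Figure D4:**
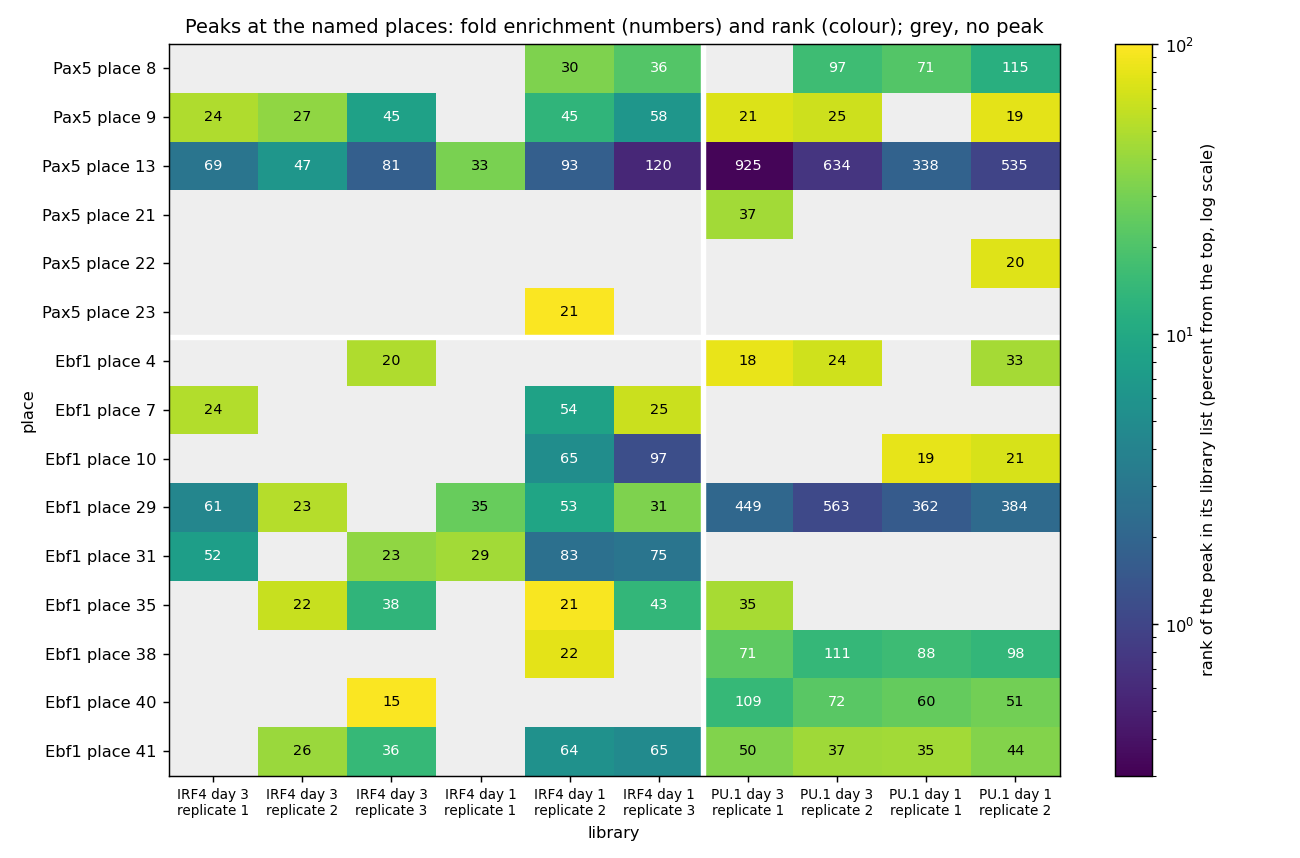
Fold enrichment by the authors (numbers) and rank within the library list in percent from the top (colour, log scale) for the 15 places described one by one (rows) in the 10 libraries (columns); grey cells have no peak. Pax5 place 13 and Ebf1 place 29 are dark in all PU.1 columns, and the row of Ebf1 place 31 is empty in all PU.1 columns.

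The starts of both genes carried little. Within 1 kb of an annotated transcript start of Pax5 there were 3 places, each in 1 library. Place 21, in exon 1, had PU.1 at 37 in day 3 replicate 1, place 22 had PU.1 at 19.9 in day 1 replicate 2, and place 23, 0.7 kb upstream, had IRF4 at 21.1 in day 1 replicate 2. At Ebf1 the only such place was place 4, in exon 1, with IRF4 at 20.4 in day 3 replicate 3 and PU.1 at 18.3 and 24 on day 3 and at 33.1 in day 1 replicate 2. No group-list IRF4 peak lay within 1 kb of either start.

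The places lay mainly in introns, 19 of 26 at Pax5 and 46 of 52 at Ebf1. The genes take up 180.3 of the 220.3 kb read at Pax5 and 390.8 of the 430.8 kb read at Ebf1. Nearly all of either gene is intron, so most of the sequence read was intron too. The places were not spread evenly. In Ebf1, intron 8 held 9 places in 24 kb, or 37.6 per 100 kb, and intron 6 held 26 in 225.6 kb, or 11.5 per 100 kb. In Pax5, intron 5 held 5 places, all between 36.9 and 43.9 kb from the start, and intron 7 held 0 in 39.6 kb. Ebf1 intron 9 held 0 in 16.4 kb.

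PU.1 was called in all 4 libraries without IRF4 at 4 places of Pax5 and 10 of Ebf1, with enrichments of 19.8 to 85.6 and 17.6 to 159. Of these, Ebf1 place 51, just past the end of the gene, was at 159 and 73.1 on day 3 and 83.2 and 71.4 on day 1. Ebf1 place 14, in intron 6, was at 101.04 and 103.8 on day 3 and 57.4 and 143.8 on day 1. Higher than place 14 in all 4 libraries was Ebf1 place 49, in intron 11, at 126.3 and 119.7 on day 3 and 92.2 and 146.1 on day 1. Pax5 place 19, in intron 1 and 6.1 kb from the start, had PU.1 at 19.8 and 27.5 on day 3 and 20.1 and 21.6 on day 1. Its window was the only 1 at either locus with the EBF1 site TCCCNNGGGA (44718212 to 44718221), which was present in 0.926% of windows of the PU.1 day 3 group list and 0.788% of the day 1 group list. EBF1 itself was not assayed.

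At Pax5, 1 of the 2 places in at least 3 IRF4 libraries held an EICE, and at Ebf1 2 of 5. Of all IRF4 places, 1 of 6 at Pax5 and 2 of 18 at Ebf1 did. An ISRE was present at 0 of 6 and 3 of 18 IRF4 places and an AP-1 site at 0 of 6 and 2 of 18. An AP-1-IRF composite element (AICE) was present at 0 of 6 and 0 of 18, and in 4.07% of windows of the IRF4 day 3 group list and 5.37% of the day 1 group list. At the PU.1 places without IRF4, an EICE was present at 1 of 20 (Pax5) and 0 of 34 (Ebf1). An ISRE was there at 0 of 20 and 4 of 34 and an AP-1 site at 1 of 20 and 2 of 34. In the PU.1 group lists of day 3 and day 1 an EICE was present in 13.4% and 14.4% of windows. An ISRE was in 5.71% and 5.72% of those windows and an AP-1 site in 5.61% and 6.06%. The PU.1 site GAGGAAGT was present at 5 of the 20 PU.1 places without IRF4 at Pax5 and at 6 of the 34 at Ebf1. At IRF4 places it was present at 0 of 6 and 1 of 18. It was present in 24.2% of windows of the PU.1 day 3 group list and 26.9% of the day 1 group list.

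Other genes of the B cell programme were read with the same distance rule. Among 20 B lineage regulators, 8 had a group-list IRF4 peak on day 3 and 9 on day 1, and 19 had a PU.1 peak on each day. The 7 with IRF4 on both days were Tcf4 (an E protein), Foxo1, Bach2 (a repressor of plasma cell differentiation), Mef2c, Pou2f2, Ets1 and Bcl11a. Ikzf3 was in the day 3 group list alone and Runx1 and Pou2af1 in the day 1 group list alone, but the library lists do not keep that split. Ikzf3 had 2, 1 and 5 IRF4 peaks in the day 3 libraries and 0, 3 and 5 in the day 1 libraries. Pou2af1 had 0, 0 and 7 in the day 3 libraries and 0, 2 and 2 in the day 1 libraries, and Runx1 had 0, 0 and 1 in the day 3 libraries and 0, 3 and 3 in the day 1 libraries. Tcf3, Ikzf1, Spi1 (the gene of PU.1), Irf8 and Bcl6 were among the 10 with no IRF4 peak in a group list. Of these 5, Tcf3 alone had none in any library, and Ikzf1, which encodes Ikaros, had 0, 0 and 3 in the day 3 libraries and 0, 6 and 2 in the day 1 libraries. None of the 20 had more than 3 group-list IRF4 peaks on day 3 or more than 4 on day 1, the counts of Bach2. Bach2 spans 347.3 kb. Ebf1 had 4 and 6, but the library lists do not keep that order. In them Bach2 had 6, 4 and 6 IRF4 peaks on day 3 and 3, 14 and 15 on day 1. Ebf1 had 3, 3 and 9 on day 3 and 2, 8 and 10 on day 1, so it was higher in day 3 replicate 3 alone.

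By the group lists, of 20 genes that Pax5 or EBF1 activate, 5 had IRF4 on day 3 and 9 on day 1, and 17 and 18 had PU.1. Cd79b, part of the antigen receptor's signalling unit, had 1 IRF4 peak on day 3 and 2 on day 1. Blnk, Bst1, Syk and Cxcr5 had 1 on each day. Cd79a, Blk and Pou2af1 were among those in the day 1 group list alone, and no gene of this list was in the day 3 group list alone. Blk also had 1 IRF4 peak in day 3 replicate 1. Of 13 genes that Pax5 represses, 5 had IRF4 on day 3 and 6 on day 1, and 11 and 9 had PU.1. Prdm1, the gene of Blimp-1, had 2 IRF4 peaks on day 3 and 1 on day 1. The plasma cell genes Xbp1, Igj and Sdc1 had none in the group lists. In the library lists Xbp1 had 0, 0 and 5 IRF4 peaks on day 3 and 0, 2 and 0 on day 1, Igj had 1 in day 3 replicate 3, and Sdc1 had none. These counts stand beside the 8.45% and 10.0% of all genes with IRF4 given above, and genes of different lengths enter them.

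By their counts over the 10 libraries, the genes most like Pax5 were Jarid2 (Spearman rho 0.997), Prkce (0.991), Tbxas1 (0.988), Rapgef1 (0.985) and 1110003E01Rik (0.985), among 3076 genes with a peak in at least 3 IRF4 libraries. Those most like Ebf1 were Plxnc1 (0.991), Lcmt1 (0.988), Nsd1 (0.988), Etv6 (0.985) and Gm20388 (0.985). The points share the lengths of the lists, so likeness was common: the median rho was 0.859 for Pax5 and 0.854 for Ebf1, and 938 and 882 genes were above 0.9.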

How the data were processed

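Antibodies against IRF4 and PU.1 were used on B cells of day 3 and day 1. Enrichment over input came from QuEST on reads aligned to mm9, as the design text states; the submitters' processing notes also name mm9. Aligner, versions and thresholds: not given in the sources used here. A deposited list gives a peak's interval, its position and its maximum enrichment, the authors' linear fold (a ratio to input) per the file headers. Peak positions stand as in the lists, which do not say if counting starts at 0 or 1; window coordinates count from 1. Repeated lines in the PU.1 group lists (5 on day 3, 7 on day 1) were counted once. Replicates carry the numbers of the sample descriptions; the titles of some libraries carry others, and those of IRF4 day 3 replicate 3 and PU.1 day 3 replicate 1 carry a pair. The input library enters no comparison.

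Genes are GENCODE M1 protein-coding genes, whose assembly is mm9; no peak ended beyond its chromosome. Positions less than 200 bp apart were chained into places, and windows of 200 bp were centred on the median IRF4 position, or PU.1 where there was none, in the reference, while the mice were 129. Introns are those of Pax5-001 and Ebf1-001. Peak counts per library were compared with two-sided exact permutation tests, adjusted by Benjamini-Hochberg over 8 tests; calls in the alternatives use the unadjusted p at 0.05. Searches and tests were tested on simulated data. Alternatives were the stronger 50% of each list, equal list lengths within each factor, and other flanks and joining distances. Further alternatives were shares of the library's peaks, a replicate block and leaving out each library. Places were described singly if IRF4 was in a group list or at least 3 libraries, or if within 1 kb of an annotated transcript start of the gene. They were also described if PU.1 was in all 4 libraries with any IRF4. Pax5 places 16 and 19 and Ebf1 places 14, 49 and 51 were named after their values were seen. All listed genes were matched, Spi1 and Syk through older symbols in a RefSeq table. Not every listed gene is reported by name here. The members and lists were chosen with earlier results of these data known. Python 3.11.15, NumPy 2.4.6, SciPy 1.17.1 and matplotlib 3.10.9 were used.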

Additional observations from a re-analysis of the deposited data

How the results depend on the processing

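Between IRF4 and PU.1, the difference in peak number kept its sign with the stronger 50% of each list (unadjusted exact permutation p under 0.05). The same held with list lengths equal within each factor, and with no flank or 50 kb. It also held without any 1 library (-14.7 to -11.7 at Pax5, -21.8 to -18.8 at Ebf1). Equal lengths meant 825 peaks for IRF4 and 27321 for PU.1, so the PU.1 lists stayed longer in each of these settings. As a share per 1000 peaks the difference turned to 0.309 and 0.768. The differences between days and between loci passed no test under any alternative, and several changed sign. Most of these tests could not pass 0.05 with so few libraries. The smallest p was 0.1 for IRF4 between days, 0.333 for PU.1 between days and 0.125 for the PU.1 density. Only the IRF4 density test with all 6 libraries, with a smallest p of 0.03125, could pass. For IRF4 at Pax5, day 3 minus day 1 was 0.333 with equal list lengths and 0.0984 per 1000 peaks, and -2.5 to -0.5 without 1 library. At Ebf1 it was 0.138 per 1000 peaks and -4 to 0 without 1 library. For PU.1 it was 1 at Pax5 with the stronger 50% and 0.5 with equal list lengths. Without 1 library it ran from -5.5 to 3.5 at Pax5 and from -0.5 to 7.5 at Ebf1. The IRF4 density difference was -0.0936 with the stronger 50%, -0.101 with equal list lengths, 0.0589 with 50 kb on either side and -0.0639 to 0.215 without 1 library. The PU.1 density difference was 0.59 with the stronger 50%, -0.462 with 50 kb on either side and -1.69 to -0.703 without 1 library. The cause was not tested.

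Counts of places in all libraries, without 1 library, ran from 1 to 2 (IRF4) and 5 to 10 (PU.1) at Pax5 and from 0 to 1 (IRF4) and 14 to 17 (PU.1) at Ebf1; requiring fewer libraries raises them by construction. PU.1 in all libraries was at 2 places of Pax5 with the stronger 50%. IRF4 places with PU.1 were 2 (stronger 50%) and 1 (equal list lengths) at Pax5, and 3 to 4 without 1 library; at Ebf1 they were 5, 4 and 5 to 10. Other joining distances left every count of places within 1.5 times.

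Pairing libraries of the same number as a replicate block left the differences between days at -1.33 and -1.67 for IRF4 and -1 and 3.5 for PU.1 (exact sign-flip permutation p = 0.5, 0.75, 1 and 1). With so few pairs, none of these p-values could go under 0.05. The correlations of same-numbered libraries' deviations were -0.267, 0.077 and -0.102 for IRF4 and -0.00297 for PU.1. IRF4 libraries did not each correlate best with their own number. With 3 or 2 libraries per day the deviations depend on each other, and every PU.1 pair gives a correlation of the same size. The check therefore cannot say whether same-numbered libraries share an animal or culture. A block of 4 pairs of IRF4 and PU.1 libraries of the same day and number, added after seeing the data, gave -13.75 at Pax5 and -21.75 at Ebf1 (exact sign-flip permutation p = 0.125 each, the smallest that 4 pairs can give). The density comparison is itself within libraries. With no read counts in the lists, a missing peak cannot be told apart from a shallow library.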

Other observations

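Past the end of Ebf1, outside the 20 kb flank and within 250 kb of the gene, IRF4 was called in at least 3 libraries at 2 more places on chromosome 11, and at 0 such places around Pax5. At 44930487, 499.7 kb from the start of Ebf1 and 0.1 kb from the start of Gm12159, IRF4 was called in 0 of 3 libraries on day 3 and in 3 of 3 on day 1, and PU.1 in 2 of 2 libraries on each day. At 44954187, 523.4 kb from the start of Ebf1 and 20.3 kb from the nearest annotated start, that of Gm12160, IRF4 was called in 3 of 3 libraries on each day and PU.1 in 1 of 2 on day 3 and 2 of 2 on day 1. Both windows hold an EICE. Over the genome, IRF4 was called in all 3 libraries of day 3 and none of day 1 at 70 places, and in all 3 of day 1 and none of day 3 at 38 places. Nothing in the lists ties these places to Ebf1.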
